A study of Mus musculus with 2 samples.

Results

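The genes described here are 40 genes of the secretory pathway and of the unfolded protein response, taken by their symbols from the 31053 genes counted in both libraries, and all 40 were found. They were sorted by role into 3 regulators of plasma cell differentiation, 4 sensors and effectors of the unfolded protein response, 12 chaperones and co-chaperones of the endoplasmic reticulum (ER), 6 disulfide and prolyl isomerases, 4 genes of ER-associated degradation (ERAD), 7 of the translocon and its associated TRAP complex, and 4 of signal peptidase. Single-cell RNA was counted in mediastinal lymph nodes (MedLNs) of WT C57/B6J mice with ovalbumin (OVA)-induced asthma. One library came from mice without butyrate (w/o Butyrate, labelled OVA) and 1 from mice given butyrate (w/ Butyrate, labelled C4), a short-chain fatty acid that gut bacteria make. Cells of 4 mice were pooled into each library and the labels give no age, dose or route for these mice, so both groups share the OVA asthma model and differ in butyrate, in the mice of the pool and in the library, which cannot be told apart. There was 1 library a group, so no test was possible, and intervals below are 95% exact intervals that cover counting error only, not the spread between mice.

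Proteins bound for secretion enter the ER through the Sec61 translocon, lose their signal peptide to signal peptidase, receive sugars, and fold with the help of chaperones such as BiP (Hspa5) and of disulfide isomerases. Proteins that fail to fold are returned to the cytosol and degraded by ERAD. A load on this machinery is sensed by IRE1 (Ern1), ATF6 and PERK (Eif2ak3). IRE1 splices the Xbp1 message, and plasma cells, which secrete immunoglobulin in bulk, are known to need the spliced form. Counts from the 3′ end do not tell spliced from unspliced Xbp1.

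A known element of the ER stress response consists of CCAAT and CCACG, 9 bases apart, on either strand. In the RefSeq promoter table (build GRCm38.p6, 250 bases before to 50 after each start), 32 of the 40 members were matched. Mzb1, Manf, Sec61a1, Sec11c, Ssr2, Spcs3, Hyou1 and Atf6 were missing. The element stood in 8 of the 32 (25%), against 37 of all 27025 genes of the table (0.137%; 0.119% of 32851 windows). The members were listed as genes of this pathway and response, so both shares only describe the list and are no test. Of 66 matched genes of the other secretory pathway lists, 2 held it, Ero1b and Syvn1. The parts alone were common: CCACG was found in 24 matched members (75%) and in 35.5% of all genes, CCAAT in 25 (78.1%) and in 41.1%. TGACGTGG, whose reverse complement contains CCACG, was found in 1 matched member (3.1%), Txndc5, and in 0.714% of all genes. Of the 66 matched genes of the other lists, 51 held CCACG (77.3%), 36 CCAAT (54.55%) and 7 TGACGTGG (10.6%). These are matches of letters and show no binding. The 9 elements of the 8 members are shown because these genes include the chaperones Hspa5, Hsp90b1 and Calr and the ERAD gene Derl3. Each line gives the element with 20 bases on either side, read 5′ to 3′ along the strand of its gene. Capitals mark the element's own CCAAT and CCACG, or their reverse complements ATTGG and CGTGG. Further copies of these letters outside the element's parts are left in lower case.
Hspa5, chr2:34772005-34772063, + strand: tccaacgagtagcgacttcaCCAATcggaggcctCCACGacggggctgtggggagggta
Hsp90b1, chr10:86705618-86705676, - strand: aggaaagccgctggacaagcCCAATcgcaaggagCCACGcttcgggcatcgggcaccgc
Hsp90b1, chr10:86705513-86705571, - strand: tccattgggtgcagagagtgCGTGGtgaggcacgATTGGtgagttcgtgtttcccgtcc
Calr, chr8:84847055-84847113, - strand: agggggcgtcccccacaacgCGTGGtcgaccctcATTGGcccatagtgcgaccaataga
Canx, chr11:50325780-50325838, - strand: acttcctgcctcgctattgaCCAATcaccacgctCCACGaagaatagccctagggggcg
Creld2, chr15:88819500-88819558, + strand: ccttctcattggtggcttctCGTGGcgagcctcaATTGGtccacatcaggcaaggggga
Derl3, chr10:75893222-75893280, + strand: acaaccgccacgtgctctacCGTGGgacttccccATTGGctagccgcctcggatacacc
Dnajc3, chr14:118937807-118937865, + strand: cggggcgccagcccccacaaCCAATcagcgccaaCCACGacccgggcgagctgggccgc
Pdia6, chr12:17266471-17266529, + strand: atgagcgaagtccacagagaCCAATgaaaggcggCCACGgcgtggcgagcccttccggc
Each lay before the annotated start, at distances from 46 bases in Hspa5 to 193 bases in the first Hsp90b1 element.

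After filtering, 8760 cells w/o Butyrate and 7990 cells w/ Butyrate were kept, with a median of 5074.5 and 5649.5 UMIs (unique molecules) a cell. The libraries shared 25 cell barcodes. Cells with Jchain and with Sdc1 or Tnfrsf17 were taken as antibody-secreting cells (42 and 11 cells). Of the rest, cells with Cd79a and no Cd3e were cycling B cells if they had Mki67 (101 and 56) and resting B cells if not (4072 and 3865), and cells with Cd3e and no Cd79a were T cells (3409 and 3105) or, with Mki67, cycling T cells (85 and 60). Markers that the rule did not use fitted most of these names. Summed antibody-secreting cells held more of the plasma cell genes Eaf2 (log2 ratio over resting B cells 5.42 and 4.11), Slamf7 (2.10 and 2.08) and Igkc (4.69 and 4.4), while Irf4 was 0.97 and 0.22 and Pou2af1 0.17 and 0.49. The remaining gene of this list of 6, Tnfrsf13b, was lower w/o Butyrate (-0.42), whereas all 6 were above 0 w/ Butyrate. The B cell genes Pax5, Cd22, Ms4a1 and Cd79b were all lower, with log2 ratios of -2.09 or less w/o Butyrate and -1.21 or less w/ Butyrate. Siglech, which marks the plasmacytoid dendritic cells that also express Jchain, had 0 UMIs in these cells, which allows up to 2.74 and 8.01 CPM (a gene's UMIs scaled by the total of the summed cells). Of the T cell genes, Trbc2 had log2 ratios of 1.12 and -2.11 and Cd3d of 0.59 and -1.56. The cell cycle genes Top2a, Birc5, Stmn1 and Cdk1 were all higher (2.24 to 3.37 and 3.27 to 4.05). Bst2, a further gene of plasmacytoid dendritic cells that other activated cells also express, was at 2.42 and 1.31. Of the myeloid genes with enough UMIs (2 and 3), Lyz2 was the lowest at -2.05 and -3.19, and the highest stood at 0.11 and 0.63. The part of T cell and cell cycle RNA in the results was not tested.

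The 40 genes together took up far more of the RNA of antibody-secreting cells than of any other class. Immunoglobulin UMIs here and below include those of Jchain, a gene of the class rule. Because immunoglobulin filled 37.0% of their UMIs w/o Butyrate, the members' share is given of the other UMIs. It was 6.22% (interval 6.17 to 6.28) in the 42 antibody-secreting cells w/o Butyrate and 3.30% (3.24 to 3.37) in the 11 w/ Butyrate. Resting B cells stood at 0.447% and 0.472%, T cells at 0.314% and 0.308%, cycling B cells at 0.657% and 0.552%, and cycling T cells at 0.587% and 0.589%. Hence the lowest share of antibody-secreting cells as a class, that w/ Butyrate, was still above every other class of either library, whereas all other classes lay below 1%. Antibody-secreting cells were also deeper, with medians of 25554 and 27317 UMIs against 4364.5 and 4605 in resting B cells.

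**Figure D1:**
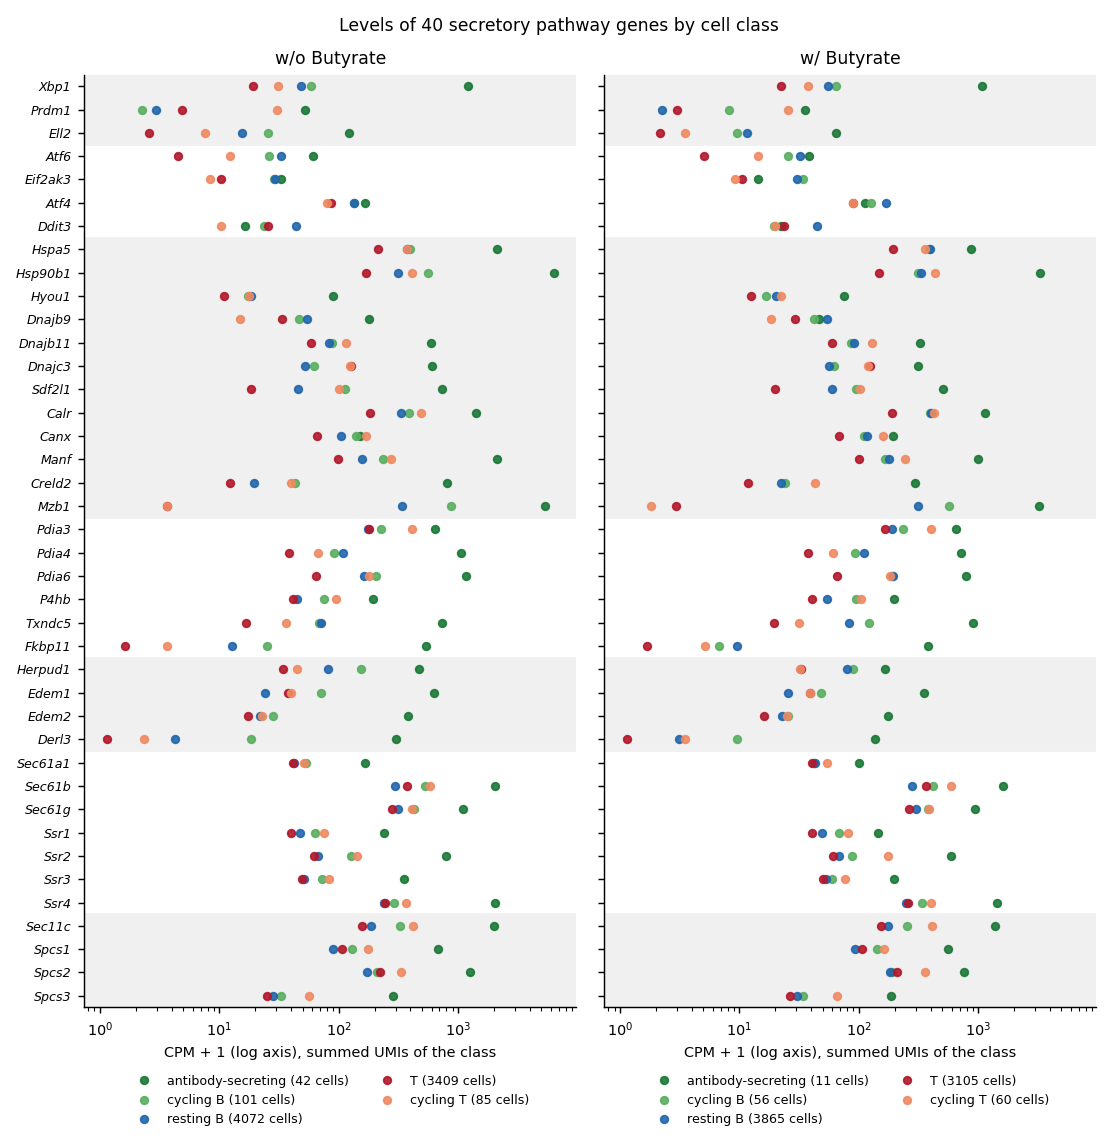
Level of each of the 40 genes (rows, shaded by role) in 5 cell classes, as CPM + 1 of the summed UMIs on a log axis, w/o Butyrate on the left and w/ Butyrate on the right. Antibody-secreting cells (dark green) lie far to the right for most genes, but not for Atf6, Eif2ak3, Atf4, Ddit3 and Canx, nor for Dnajb9 w/ Butyrate. T cells lie far to the left for Mzb1, Fkbp11 and Derl3.

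Single cells of the class were not alike. Their share of member UMIs ran from 0.531% over a median of 6.29% to 21.1% w/o Butyrate and from 0.413% over 5.67% to 9.54% w/ Butyrate. The highest value came from a cell of only 940 UMIs, and the next 2 were 13.9% and 13.7%. A group of low cells stood apart: 3 of the 42 cells and 4 of the 11 had under 10% immunoglobulin UMIs, and their member shares were 0.531% to 1.14% and 0.413% to 1.29%. Of the 3, 2 had Cd3e, with 4 and 6 UMIs, and each of these had 1 Jchain UMI and 0 Mzb1 UMIs. The 4 w/ Butyrate all had Mki67, between 6 and 52 Jchain UMIs, and a median of 38712.5 UMIs, so that these few large cells held much of that library's sum. The rule counts them as antibody-secreting cells. Values below are for all cells the rule chose unless said otherwise, and the counts, the role medians and the genes whose call differs are also given without these cells. This limit of 10% was chosen after the values were seen. With it, 39 and 7 cells remained, the shares became 6.45% (6.39 to 6.51) and 6.78% (6.63 to 6.92), and the medians over cells became 6.41% and 6.26%.

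**Figure D2:**
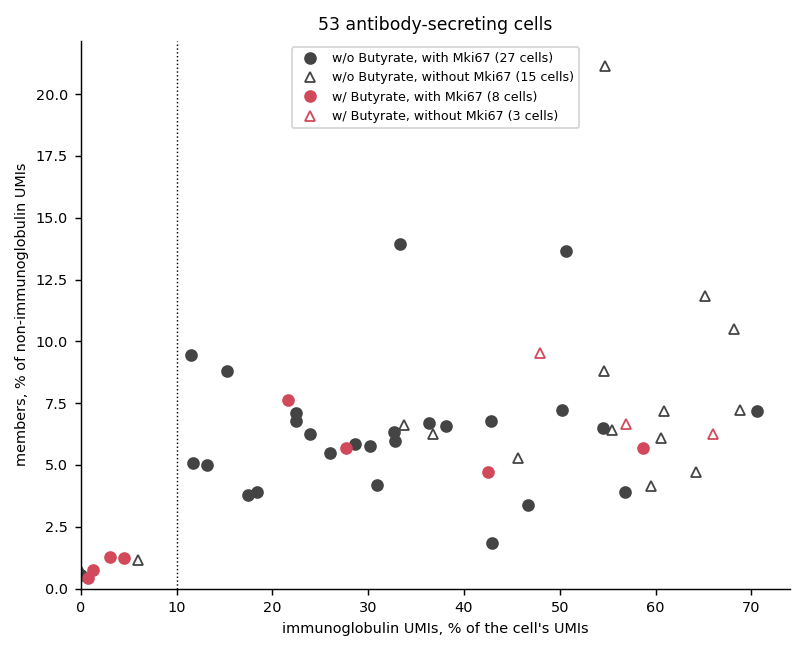
Each point is 1 of the 53 antibody-secreting cells, with its immunoglobulin UMIs as a percent of its UMIs on the x axis and the members' percent of its other UMIs on the y axis, by library (grey, w/o Butyrate; red, w/ Butyrate) and Mki67 (filled circles with, open triangles without). The 7 cells left of the dotted line at 10% have member shares of at most 1.29%.

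Across the 46 cells above that limit, the members' share was only weakly related to a cell's immunoglobulin. Pearson's r between both percentages was 0.18 and Spearman's rho 0.19 (46 cells of 2 libraries, which share library and depth, given as a description). The immunoglobulin percent itself was higher where a cell had few Mki67 UMIs (r = -0.64, rho = -0.72). These Mki67 counts were not scaled to a cell's other UMIs, which are a smaller part of cells rich in immunoglobulin. Cells with Mki67 had a median of 31.8% immunoglobulin w/o Butyrate, against 59.6% in cells without it, yet the medians of the members' share were 6.29% and 6.63% (26 and 13 cells).

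Compared with resting B cells, most members were at least 2-fold higher in antibody-secreting cells of both libraries. Ratios are on the log2 scale of CPM with a pseudocount of 10, over genes with at least 50 UMIs in both sums together. W/o Butyrate all 40 passed this filter and 35 had a log2 ratio of at least 1, against 5.23% of all 9471 genes, with medians of 2.77 for the members and -0.43 for all genes. W/ Butyrate 39 passed, since Prdm1 had too few UMIs, and 32 reached 1, against 5.26% of all genes, with medians of 2.02 and -0.28. Among cells with at least 10% immunoglobulin, 35 of 40 and 33 of 39 reached it, against 5.23% and 4.47% of all genes, with member medians of 2.82 and 2.60. Leaving immunoglobulin out of the totals moved the median of all genes to -0.15 and -0.07 and that of the members to 3.42 and 2.39, with 37 and 34 members at 1 or more. The share of all genes at 1 or more on those totals is not given. The filter favours genes that are high in the class, and these counts describe 2 libraries.

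**Figure D3:**
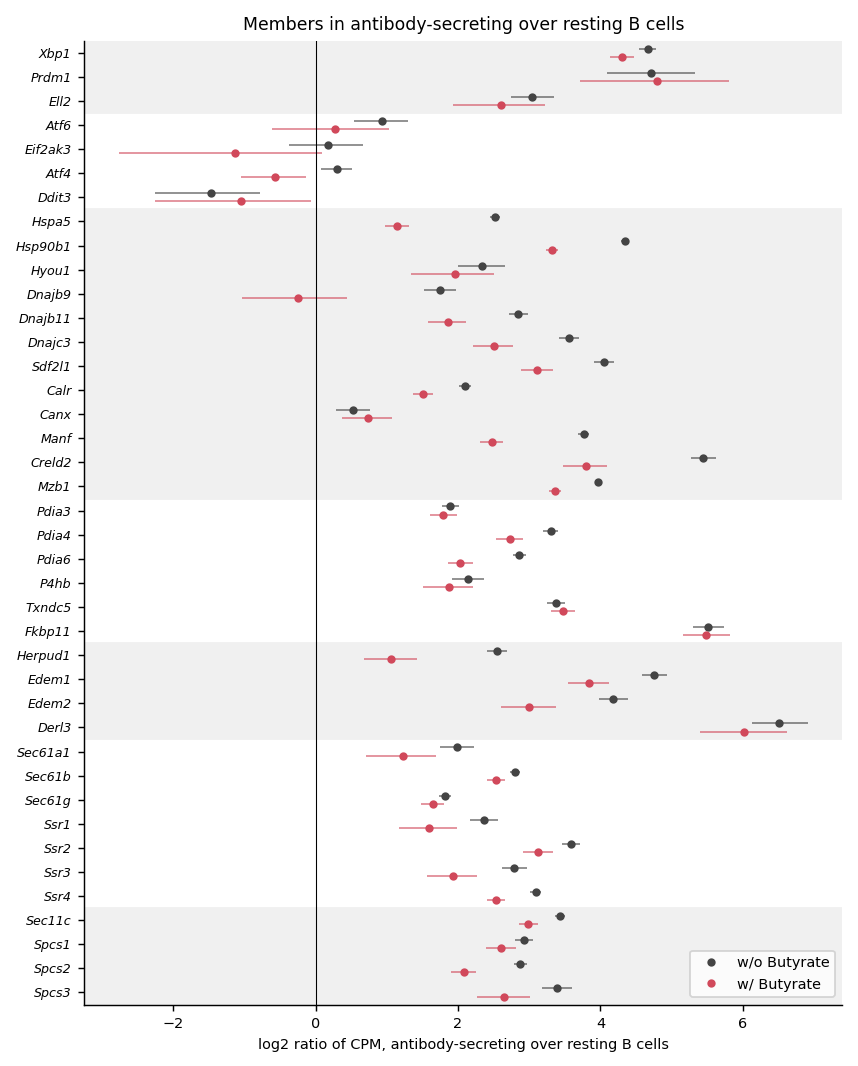
Log2 ratio of CPM, antibody-secreting over resting B cells, for each of the 40 genes (rows, shaded by role), without a pseudocount, with 95% intervals of counting error as bars, in grey w/o Butyrate and in red w/ Butyrate. The ratios of Derl3, Fkbp11 and Creld2 are the largest w/o Butyrate, and most red points lie left of the grey ones. The 4 sensors and effectors lie on both sides of 0, with Atf6 above it and Ddit3 below it in both libraries.

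Of the regulators, Xbp1, the transcription factor that drives the ER of plasma cells, ranged over the 42 cells w/o Butyrate from 0 over a median of 1198 to 5319 CPM. That top value was only 5 UMIs, in the shallow cell of 940 UMIs. Over the 11 cells w/ Butyrate Xbp1 ranged from 0 over 587 to 4157 CPM. The single cell at 0 in each library was 1 of those with little immunoglobulin, since no cell above 10% was at 0. In sum, Xbp1 stood at 1201 CPM (1137 to 1268) w/o Butyrate and 1077 CPM (974 to 1187) w/ Butyrate, against 47.5 and 54.5 CPM in resting B cells and 18.1 and 21.2 CPM in T cells, and its log2 ratio over resting B cells was 4.4 and 4.08. Prdm1, which encodes the repressor Blimp-1 that ends the B cell programme, was scarce throughout, with 56 UMIs in 42 cells and 13 in 11, and no UMI in 21 and 5 of them. Its log2 ratio was 2.35 w/o Butyrate. Ell2, an elongation factor used in the switch to secreted immunoglobulin heavy chain, had log2 ratios of 2.41 and 1.85.

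The sensors and effectors had the lowest median of the roles in both libraries, 0.20 w/o Butyrate and -0.64 w/ Butyrate (0.23 and -0.41 with at least 10% immunoglobulin). On totals that include immunoglobulin, none of the 4 was at least 2-fold higher in either library. Without immunoglobulin in the totals, Atf6 passed the fold w/o Butyrate (1.32) and not w/ Butyrate (0.52), and the other 3 did not. Atf6, a membrane-bound transcription factor cut free under stress, was at 0.75 and 0.21. Eif2ak3, the kinase PERK that slows translation, was at 0.13 and -0.75, with 35 and 5 UMIs. Atf4, the transcription factor made more when PERK acts, was at 0.28 and -0.53, at 165 CPM (142 to 191) and 112 CPM (80.9 to 152) against 135 and 167 CPM in resting B cells. Ddit3, the CHOP factor linked to death under lasting ER stress, was lower, at -1.05 and -0.78, with 17 and 8 UMIs and no UMI in 30 of 42 and 7 of 11 cells. Ern1, which is no member, was at 0.94 w/o Butyrate and did not pass the filter w/ Butyrate. These counts are of messages, and the activity of the 3 sensors is regulated at the protein.

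Of the 12 chaperones and co-chaperones, 11 reached a log2 ratio of 1 w/o Butyrate and 10 w/ Butyrate, with medians of 3.02 and 2.03. With at least 10% immunoglobulin the counts were also 11 and 10, with medians of 3.05 and 2.62. Hsp90b1, the chaperone GRP94, ranged from 254 over 4463 to 25375 CPM across the 42 cells and from 80 over 1412 to 11256 CPM across the 11 cells. With at least 10% immunoglobulin, its lowest values were 1010.0 and 671 CPM and its medians 4530.2 and 5097 CPM, so that the low end of both libraries lay in cells with little immunoglobulin. Its log2 ratio was 4.30 and 3.28. Hspa5, encoding BiP, ranged from 194 over 1239 to 10432 CPM and from 131 over 788 to 3545 CPM, with ratios of 2.49 and 1.13 (1.86 w/ Butyrate with at least 10% immunoglobulin). Mzb1, an ER protein of B lineage cells that helps to assemble antibody, ranged from 0 over 4461 to 41489 CPM and from 563 over 2870.5 to 7257 CPM, with ratios of 3.93 and 3.32. Its top value w/o Butyrate was 39 UMIs in the shallow cell of 940 UMIs. Creld2 and Sdf2l1, both ER proteins induced by stress, were at 4.84 and 3.29 and at 3.78 and 2.91. Manf, an ER-retained stress-response protein that can also be secreted, was at 3.68 and 2.41. Of the J-domain partners of BiP, Dnajc3 was at 3.33 and 2.31, Dnajb11 at 2.70 and 1.75, and Dnajb9 at 1.58 and -0.20. Hyou1, which exchanges nucleotide on BiP, was at 1.84 and 1.53. The lectin chaperones differed: Calr was at 2.06 and 1.48, and Canx at 0.49 and 0.69, so that Canx did not reach the fold in either library. It did without immunoglobulin in the totals (1.10 and 1.05).

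All 6 isomerases reached the fold in both libraries, with medians of 2.99 and 2.30 (3.03 and 2.82 with at least 10% immunoglobulin). Fkbp11, a prolyl isomerase known from secretory cells, had the largest ratios of the group (4.66 and 4.4). It was much lower elsewhere, at 541 CPM (498 to 587) and 379 CPM (319 to 447) in antibody-secreting cells against 11.8 and 8.47 CPM in resting B cells and 0.622 and 0.676 CPM in T cells. The disulfide isomerases Pdia4 (3.19 and 2.62), Pdia6 (2.79 and 1.98), Pdia3 (1.83 and 1.74) and P4hb (1.92 and 1.69) followed. Txndc5, a further thioredoxin-domain isomerase, stood at 3.20 and 3.32 and was the only isomerase with a larger ratio w/ Butyrate than w/o.

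All 4 ERAD genes reached the fold w/o Butyrate and 3 did w/ Butyrate, with medians of 3.96 and 2.96. With at least 10% immunoglobulin all 4 did in both libraries, with medians of 4.02 and 3.72, since Herpud1 was then at 1.48 w/ Butyrate. Derl3, a derlin of the channel through which proteins leave the ER, had 328 UMIs in the 42 cells and 51 in the 11 cells, against 67 and 44 in all resting B cells and 3 and 3 in all T cells. Cells at 0 numbered 6 of 42 and 3 of 11, and 3 of 39 and 0 of 7 with at least 10% immunoglobulin. Its log2 ratio was 4.54 and 3.59, and without the pseudocount 6.51 (6.13 to 6.91) and 6.01 (5.40 to 6.62). After thinning each cell to 2000 UMIs, Derl3 was found in 31.7% and 18.2% of antibody-secreting cells, 0.596% and 0.494% of resting B cells and 0.0589% and 0.0647% of T cells; before thinning the shares were 85.7% and 72.7%, 1.40% and 0.957%, and 0.088% and 0.0966%. The mannosidase-like proteins Edem1 (4.26 and 3.38) and Edem2 (3.65 and 2.53), which mark glycoproteins for ERAD, were also higher. Herpud1, an adaptor of the ERAD complex, was at 2.41 and 0.98.

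All genes of the entry machinery reached the fold in both libraries. The 7 translocon and TRAP genes had medians of 2.57 and 1.74 (2.60 and 2.27 with at least 10% immunoglobulin), and the 4 signal peptidase genes of 2.90 and 2.39 (2.94 and 3.04). Of the Sec61 channel, Sec61b was at 2.76 and 2.49, Sec61g at 1.79 and 1.61, and the pore subunit Sec61a1 at 1.76 and 1.05. Of TRAP, which helps some chains into the channel, Ssr2 (3.40 and 2.95) and Ssr4 (3.04 and 2.49) stood above Ssr3 (2.57 and 1.74) and Ssr1 (2.14 and 1.42). Sec11c, a catalytic subunit of signal peptidase, was at 3.36 and 2.92, and Spcs1, Spcs2 and Spcs3 were between 2.02 and 2.99 in both libraries. Across the 42 cells Sec11c ranged from 251 over 1994 to 3382 CPM, a narrower range than that of Hsp90b1, and Ssr4 from 126 over 2007 to 4426 CPM.

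The other secretory pathway genes came from lists that hold no member. Of the oligosaccharyltransferase, which adds the sugar, 8 of 10 reached the fold w/o Butyrate and 6 of 10 w/ Butyrate, led by Ddost (3.19 and 2.43) and Rpn1 (2.94 and 2.90). Of redox and folding genes 7 of 9 and 6 of 9 did, led by Prdx4 (3.96 and 3.36), and of other ERAD genes 6 of 9 and 5 of 9, with Sel1l at 2.44 and 1.09. Signal recognition had 7 of 11 and 3 of 11. Of the coats, COPII had 6 of 12 and 2 of 11, and COPI with its retrieval receptors 6 of 12 and 5 of 12, among them Lman1 (3.86 and 2.74), a cargo receptor. Of integrated stress response genes, 1 of 6 was higher and 1 of 6 lower in each library. The lower count is near the share of all genes, of which 1836 of 9471 were lower w/o Butyrate and 1320 of 9455 w/ Butyrate. Atf5 (1.83 and 1.25) was the higher one, and the lower one was Ddit4 w/o Butyrate (-1.53) and Ppp1r15a w/ Butyrate (-1.82). With at least 10% immunoglobulin the counts w/ Butyrate were 8 of 10 for oligosaccharyltransferase, 6 of 9 for redox and folding, 8 of 9 for other ERAD, 6 of 11 for signal recognition, 2 of 11 for COPII and 5 of 12 for COPI. Of the integrated stress response, 1 of 6 was then higher and 2 of 6 were lower. The share of all genes lower under this limit is not given, so the latter count cannot be set against it.

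Over all cells of the class, the 8 members whose promoter held the element shown above had a median log2 ratio of 3.06 w/o Butyrate (0.49 to 4.84) and 2.14 w/ Butyrate (0.69 to 3.59). The other matched members had 2.64 w/o Butyrate (24 members, -1.05 to 4.66) and 1.85 w/ Butyrate (23 that passed, -0.78 to 4.40). The range of the 8 lay within that of the others w/ Butyrate and passed it only at the upper end w/o Butyrate. Canx was the lowest of the 8 in both libraries.

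Within the 46 cells above 10% immunoglobulin, the members did not all move together. Each member's share of the non-immunoglobulin UMIs was set against that of the other 39, for the 28 members with a median of at least 5 UMIs a cell (Spearman's rho over 46 cells of 2 libraries, given as a description). All 28 values were above 0, with a median of 0.47 and a range from 0.00 to 0.78. The highest were Manf (0.78), Sdf2l1 (0.67), Derl3 (0.67), Creld2 (0.65), Hspa5 (0.64) and Pdia4 (0.63). The lowest were Ssr2 (0.00), Ssr3 (0.03), Txndc5 (0.12), Fkbp11 (0.12), Xbp1 (0.15) and Ssr4 (0.17). Neither end held 1 role alone, but the translocon and TRAP genes among the 28 all lay low, Sec61b (0.19) and Sec61g (0.21) included. The chaperones Hsp90b1 (0.50), Dnajc3 (0.50) and Dnajb11 (0.46) lay in the middle with signal peptidase (Sec11c 0.45, Spcs1 0.47, Spcs2 0.50, Spcs3 0.37).

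Few members passed the fold between cells with and without Mki67. W/o Butyrate, the 26 cells with Mki67 were compared with the 13 without it on totals without immunoglobulin, a split chosen after the values were seen. Of 38 members that passed, 0 were at least 2-fold higher in the cells with Mki67, against 9.93% of all genes, and 3 were at least 2-fold lower, against 3.47% of all genes. The 3 were Herpud1 (605 against 1478 CPM, log2 ratio -1.27), Ssr4 (2664 against 6093 CPM, -1.19) and Edem2 (504 against 1114 CPM, -1.13). Edem1 was close to the fold (864 against 1723 CPM, -0.99). In the other direction Calr (2487 against 1596 CPM, 0.64) and the scarce Prdm1 (0.64) had the largest values among those that passed. The median of the members was -0.14 and that of all genes 0.13. W/ Butyrate there were 4 and 3 such cells, and of 27 members that passed 0 were higher, against 11.9% of all genes, and 3 lower, against 6.1%. These 3 were Edem2 (-1.36), Creld2 (-1.25) and Hspa5 (-1.12), of which Creld2 (0.14) and Hspa5 (0.01) were near 0 w/o Butyrate. Ssr4 was -0.84, and Herpud1 was -0.67 with too few UMIs to pass. Edem2 was thus the single member past the fold in both libraries.

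Fewer members reached the fold in cycling B cells, and the counts depended on few cells and on the removal of doublets. W/o Butyrate 4 of the 39 members that passed reached a log2 ratio of 1, against 5.62% of all genes, and the median was 0.36. The 4 were Mzb1 (1.35), Edem1 (1.27), Sdf2l1 (1.16) and Derl3 (1.05). With the 3 B cells of at least 10% immunoglobulin left out, 1 of them a cycling B cell, 0 of 39 reached it, against 5.55% of all genes, and the median was 0.17. Mzb1 then lay just short of the fold, and Edem1 was 0.94, Sdf2l1 0.74 and Derl3 0.64. W/ Butyrate 0 of 39 reached it, against 4.3% of all genes, with a median of 0.13 and Mzb1 at 0.85. With no doublet removal or with Scrublet's own threshold, 6 or 7 members reached it w/ Butyrate and the median was 0.50 or 0.49. The share of all genes under those doublet settings is not given. Mzb1 stood at 878 and 572 CPM in all cycling B cells against 339 and 314 CPM in resting B cells. Of the 3 myeloid markers, 2 passed the fold in each library, with Lyz2 at 2.06 and 4.09, Csf1r at 1.63 and 0.78 and Cd68 at 0.66 and 1.82, and their part in the result was not tested.

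T cells had lower levels than resting B cells for some roles only. W/o Butyrate 10 of 40 members had a log2 ratio of -1 or less, against 4.81% of all genes, and 1 was at 1 or more, against 3.6%. W/ Butyrate 12 of 39 were lower, against 5.01%, and 1 was higher, against 3.59%. The medians of the members were -0.45 and -0.59, and those of all genes -0.04 and -0.06. The member with the largest difference was Mzb1 (-4.78 and -4.76), at 339 and 314 CPM in resting B cells and 2.68 and 1.94 CPM in T cells. After thinning it was found in 43.8% and 43.9% of resting B cells and 0.56% and 0.486% of T cells, and before thinning in 67.2% and 69.0% and in 1.47% and 1.38%. Txndc5 (-1.65 and -1.70), Atf6 (-1.62 and -1.54), Pdia4 (-1.31 and -1.36), Pdia6 (-1.22 and -1.44), Xbp1 (-1.03 and -1.05) and Herpud1 (-1.05 and -1.08) were lower as well. Dnajc3 was the only member at least 2-fold higher in T cells (1.16 and 1.04, 127 and 123 CPM against 51.4 and 55.1). By contrast 0 of the 7 translocon and TRAP genes and 0 of the 4 signal peptidase genes passed the fold in either direction, and they lay between -0.24 and 0.37.

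Cycling T cells, which secrete no antibody, were above other T cells for some members. This comparison was added after the values were seen. W/o Butyrate 12 of 37 reached a log2 ratio of 1, against 7.51% of all genes, and w/ Butyrate 14 of 36, against 8.69%. The medians of the members were 0.67 and 0.70 and those of all genes 0.08 and 0.10. Sdf2l1 (2.0 and 1.94), Creld2 (1.20 and 1.32), Prdm1 (1.5 and 1.53), Hsp90b1 (1.22 and 1.48), Manf (1.40 and 1.20), Sec11c (1.37 and 1.37), Pdia6 (1.37 and 1.38), Calr (1.37 and 1.14) and Canx (1.25 and 1.11) were among those that reached it in both libraries. Xbp1 (0.50 and 0.57), the 3 ERAD genes that passed (0.08 to 0.31 and -0.02 to 0.44) and Dnajb9 (-0.84 and -0.48) did not. Canx reached the fold in antibody-secreting cells only without immunoglobulin in the totals, which left its values in this comparison at 1.25 and 1.11.

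Set side by side, the libraries differed in antibody-secreting cells as the rule chose them. Of 38 members that passed, 25 had a log2 ratio of -0.5 or less, w/ over w/o Butyrate, against 11.3% of all 2405 genes, and 0 were at 0.5 or more, against 35.1%. The medians were -0.57 for the members and 0.29 for all genes. Dnajb9 (-1.77), Herpud1 (-1.44), Creld2 (-1.41), Hspa5 (-1.28), Manf (-1.09), Derl3 (-1.08) and Edem2 (-1.07) had the lowest values. Hspa5 stood at 2130 CPM (2044 to 2218) w/o Butyrate and 873 CPM (781 to 973) w/ Butyrate. Without immunoglobulin in the totals 31 were lower and the median was -0.84. Immunoglobulin filled 37.0% of these cells' UMIs w/o Butyrate and 24.1% w/ Butyrate. The total thus shrank more w/o Butyrate, which by itself lowers the ratios of most genes. With no doublet removal or with Scrublet's own threshold 16 were lower. In the 15 and 3 cells with no Mki67, 5 were lower and the median turned to 0.0771. Leaving out cells with Mki67 also removed all 4 cells w/ Butyrate with under 10% immunoglobulin, but only 1 of the 3 w/o Butyrate. For these other settings, totals without immunoglobulin among them, the share of all genes is not given, so the counts cannot be set against it. Markers of other cells moved as well: the 2 B cell markers that passed were higher w/ Butyrate (Ms4a1 2.58, Cd79b 0.77), as were 3 of 4 cell cycle markers past 0.5 (Stmn1 0.92, Top2a 0.72, Birc5 0.58), and the T cell marker that passed was lower (Trbc2 -3.53). Their part in the difference was not tested.

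Most of this difference was not seen among cells with at least 10% immunoglobulin (39 and 7 cells). This limit, set after the values were seen, left out the cells with the lowest member shares, 3 of 42 and 4 of 11. A smaller difference thus follows in part from that choice. Among the cells kept, 4 of 38 members were at -0.5 or less, against 21.7% of all 1915 genes, and 2 were at 0.5 or more, against 8.72%, with medians of -0.07 and -0.10. Dnajb9 (-1.57), Herpud1 (-0.97), Creld2 (-0.69) and Hspa5 (-0.57) were the 4. For Dnajb9 this was 11 UMIs in 7 cells, at 54.8 CPM against 183 CPM, and 0 to 93.4 CPM over the 7 cells against 0 to 595 CPM over the 39 cells, so that the ranges overlapped. Txndc5 was higher by 1.10, with 1604 CPM against 745 CPM, a median over cells of 1611 against 377 CPM and a range of 752 to 2782 against 0 to 3238 CPM. Xbp1 was higher by 0.68 (1973 against 1230 CPM), although its medians over cells, 1238 and 1251 CPM, were nearly equal. Of the 25 members that were lower before, Pdia4 (0.21), Fkbp11 (0.33) and Sec11c (0.09) turned to above 0. Cell numbers this small leave any 1 cell a large part in these values.

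**Figure D4:**
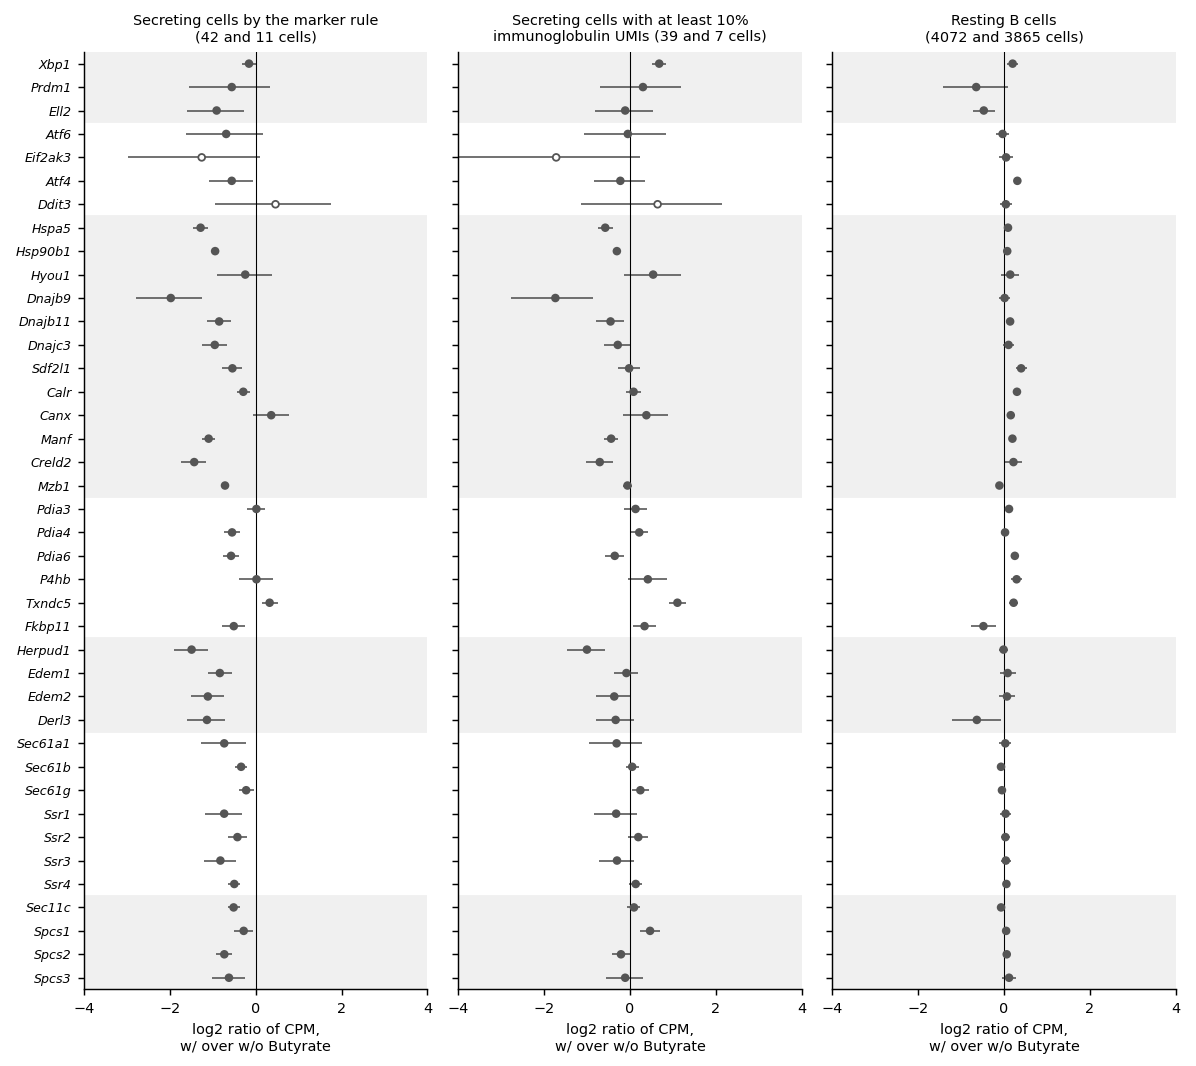
Log2 ratio of CPM, w/ over w/o Butyrate, for each of the 40 genes (rows, shaded by role), without a pseudocount and with 95% intervals of counting error as bars, in antibody-secreting cells as the rule chose them (left), in those with at least 10% immunoglobulin UMIs (middle) and in resting B cells (right). Open points have under 50 UMIs. The bar of Eif2ak3 in the middle runs past the axis. Points lie mostly left of 0 on the left, on both sides in the middle, and mostly close to 0 on the right.

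The large classes showed little difference. In resting B cells 0 of 40 members passed 0.5 in either direction, against 0.175% of all genes higher and 0.292% lower, with values from -0.26 (Ell2) to 0.33 (Sdf2l1). Medians were 0.05 for the members and 0.03 for all genes. In T cells 0 of 38 did, against 0.0389% higher and 0.409% lower, with a median of -0.02. In cycling B cells 5 of 34 were lower, against 5.68% of all genes, and 1 was higher, against 5.29%, with a median of -0.10. The 5 were Hsp90b1 (-0.82), Herpud1 (-0.72), Creld2 (-0.66), Mzb1 (-0.61) and Ssr2 (-0.51), and the higher one was Txndc5 (0.74). With the cycling B cell of at least 10% immunoglobulin left out, 0 were lower, and with no doublet removal or Scrublet's own threshold the median turned to 0.20. No share of all genes is given for that count. The myeloid gene Lyz2 was 3.17 higher w/ Butyrate in this class, on the log2 scale, and its part was not tested.

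Summed over all cells, 5 of 40 members were lower w/ Butyrate, against 0.404% of all genes, and 0 were higher, against 0.0824%. These were Mzb1 (-0.76), Fkbp11 (-0.69), Derl3 (-0.60), Creld2 (-0.55) and Hsp90b1 (-0.53). With no doublet removal or Scrublet's own threshold 3 were lower. After thinning to 2000 UMIs per cell, 0 were lower and the median moved from -0.14 to 0.0164. The share of all genes under the doublet settings and after thinning is not given. Antibody-secreting cells made up 0.479% of the cells w/o Butyrate and 0.138% w/ Butyrate. They held 2.08% and 0.719% of all UMIs but 17.4% and 4.41% of the members' UMIs. For single members their part ran from 1.06% (Ddit3) to 72.9% (Derl3) w/o Butyrate, above 20% in 14 members, and from 0.479% (Ddit3) to 43.2% (Derl3) w/ Butyrate, above 20% in 2. The share of all genes above 20% is not given, so these counts cannot be set against it. Fkbp11 (65.3% and 39.4%), Creld2 (50.5% and 11%), Xbp1 (42.3% and 17.1%) and Mzb1 (39.1% and 14.2%) were among the highest members in both libraries. With the antibody-secreting cells left out of both sums, 0 of 40 members passed 0.5 and the median was 0.00. Of all 12084 genes that passed in the same sums, 41 were lower and 10 higher, with a median of 0.01. Few genes of any kind thus passed. Mzb1 was at -0.30, Fkbp11 at -0.18, Derl3 at -0.13 and Hsp90b1 at -0.09. Whether the number of these cells in each pool followed butyrate was not tested.

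**Figure D5:**
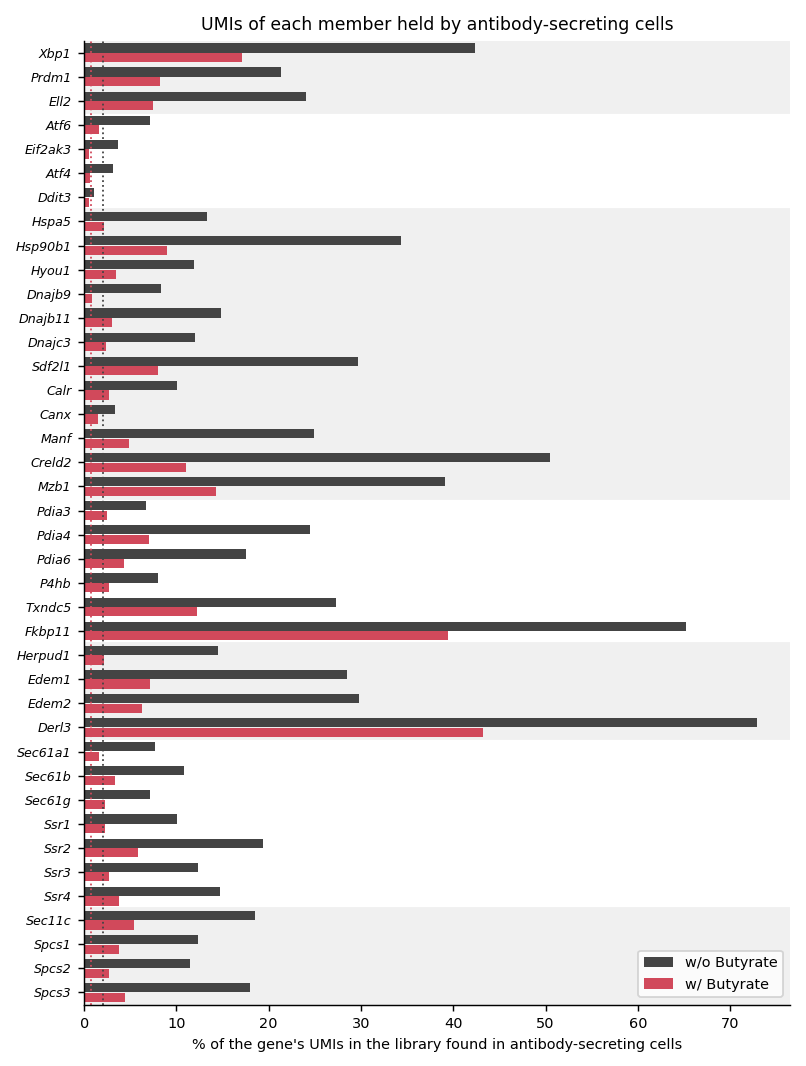
Percent of the UMIs of each member (rows, shaded by role) in a library that were found in antibody-secreting cells, as bars from 0, in grey w/o Butyrate and red w/ Butyrate. Dotted lines mark the percent of all UMIs held by these cells, 2.08% and 0.719%. The longest bars are those of Derl3 and Fkbp11, and every grey bar is longer than its red one.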

How the data were processed

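Cells from MedLNs of 4 pooled mice per library were profiled with 10x 3′ chemistry version 3. Per the labels and the submitters' processing notes, the authors aligned the reads to mm10 and counted UMIs per gene and cell with Cell Ranger 6.0.1, and the deposited matrices hold these counts, not normalized. Both matrices held 9681 and 8932 cells and 59176459 and 58381292 UMIs (w/o and w/ Butyrate).

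Cells were kept with at least 200 genes and at most 10% of their UMIs from mitochondrial genes. Doublets were ranked with Scrublet in scanpy 1.11.5, and the top 735 and 615 cells were dropped, a rate of 0.8% per 1000 cells. UMIs were summed per class and library and divided by the total of the sum, to CPM. The sums of 3′ UMIs were not divided by gene length, so levels were not ranked between genes. Log2 ratios used a pseudocount of 10 CPM and at least 50 UMIs over both sums, which understates the differences of low genes. Calls needed a log2 ratio of 1 between classes and 0.5 between libraries. All calls were made over the whole gene table. Intervals were exact Poisson for sums, exact Clopper-Pearson for shares, and exact conditional binomial for ratios without a pseudocount. How often a gene was found was also measured after thinning to 2000 UMIs per cell, leaving out shallower cells (41 and 11 antibody-secreting, 4024 and 3844 resting B and 3393 and 3089 T cells remained). The code for the contrasts was also run on counts simulated from the class sums w/o Butyrate. Python 3.11.15, numpy 2.4.6, scipy 1.17.1 and pandas 2.3.3 were used.

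The members, the lists and the genes named were chosen with earlier results of these data known. The rule for named genes took all 40 members, and other genes only from the pathway and marker lists. The limit of 10% immunoglobulin, the Mki67 split, the cycling T cell comparison and the sums without antibody-secreting cells were added after the values were seen.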

Additional observations from a re-analysis of the deposited data

Results flagged for a closer look

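Outside the class of antibody-secreting cells, 5 cells w/o Butyrate had at least 10% immunoglobulin UMIs (11.2% to 65.1%), and 0 cells w/ Butyrate did. The 5 cells had no UMI of Sdc1 or Tnfrsf17, and 2 of them were counted as resting B cells, 1 as a cycling B cell and 2 in no class. The members took a median of 5.51% of their other UMIs (4.10% to 8.90%), against 0.447% in resting B cells of that library. They were singled out because they carry the members' signal in cells that the class did not use.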

How the results depend on the processing

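No paired analysis was possible because each condition has 1 library, and no library could be left out. Of the medians, counts and shares recomputed under other settings, leaving out the limit of 10% immunoglobulin, 272 stayed close to the main value, 40 moved and 1 past the fold changed sign. Medians near 0 changed sign too: that of w/ over w/o Butyrate in cycling B cells was 0.20 under both other doublet settings, and that of cycling over resting B cells w/ Butyrate was -0.0454 with at least 2 UMIs of Cd79a or Cd3e and -0.0409 after thinning. With the limit of 10%, 15 stayed close and 6 moved. For members past the fold between antibody-secreting and resting B cells, the sign was kept in 536 of 536 values w/o Butyrate and in 477 of 478 w/ Butyrate, the exception being Ssr1 after thinning (-0.0286). Between the libraries it was kept in 343 of 357. In what follows the share is that of the members in all UMIs of antibody-secreting cells, 3.92% and 2.51% in the main analysis. Counts under other settings stand here without the share of all genes. The cause of each move was not tested.

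With no doublet removal or with Scrublet's own threshold, 6 or 7 members were higher in cycling than in resting B cells w/ Butyrate, 16 were lower w/ than w/o Butyrate in antibody-secreting cells and 3 in all cells, Atf6 turned to 0.0233, and the shares were 3.88% and 2.61%. They were 3.82% and 2.58% with at most 5% mitochondrial UMIs, 3.99% and 2.58% with at least 10 Jchain UMIs, and 3.79% and 2.06% without the cell that held most member UMIs. In antibody-secreting cells with no Mki67 (15 and 3), the medians over resting B cells were 2.40 and 2.38, the shares 3.00% and 3.30%, and 5 members were lower w/ Butyrate. That setting also removed all 4 cells w/ Butyrate with under 10% immunoglobulin, but only 1 of the 3 w/o Butyrate. The median between the libraries turned to 0.0771, and Hspa5 (0.29), Hsp90b1 (0.15), Sdf2l1 (0.66), Creld2 (0.35), Mzb1 (0.0530), Pdia4 (0.46), Fkbp11 (0.44), Ssr3 (0.41), Sec11c (0.14) and Spcs2 (0.16) turned to above 0.

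Without immunoglobulin in the total, the medians were 3.42 and 2.39 and the shares 6.22% and 3.30%, and without ribosomal protein and mitochondrial genes as well, 3.23 (w/o Butyrate), 8.96% and 4.87%. Thinned to 2000 UMIs, the median was 2.51 w/o Butyrate, the shares 3.65% and 2.60%, and the median member was found in 58.5% and 45.5% of the cells. Then 9 members were lower w/ Butyrate in antibody-secreting cells, where Sdf2l1 (0.0759) and Pdia4 (0.18) turned, and 0 in all cells, with a median of 0.0164. With a pseudocount of 1 CPM the median w/ Butyrate was 2.46, 1 member was higher in cycling B cells w/ Butyrate, and the medians of T over resting B cells were -0.66 and -0.77.

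With at least 10% immunoglobulin, added after the values were seen, the median w/ Butyrate was 2.60, 0 members were higher in cycling B cells w/o Butyrate, 4 were lower w/ Butyrate in antibody-secreting cells, the median there was -0.0693, the shares were 4.0% and 3.87%, and Pdia4 (0.21), Fkbp11 (0.33) and Sec11c (0.0935) turned. With 42 and 11 cells, members of few UMIs such as Ddit3, Eif2ak3 and Prdm1 could not be placed closely.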
